A study of Mus musculus with 10 samples.

Results

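The ZIP family (*Slc39a* genes) was examined in RNA-seq counts from proximal intestine of 5 WT and 5 KO mice, with 1 library per mouse. The 10 members taken were *Slc39a14*, *Slc39a1*, *Slc39a3*, *Slc39a4*, *Slc39a5*, *Slc39a6*, *Slc39a7*, *Slc39a8*, *Slc39a10* and *Slc39a11*, matched by symbol to 10 of the 35275 Ensembl gene IDs in the counts. The study's methods describe a whole-body knockout of *Zip14* (*Slc39a14*) bred from heterozygotes together with its WT controls, whereas the series title names a deletion in enterocytes, and the labels say only KO and WT. The labels give an age of 8 to 10 weeks for every mouse and name no agent in either group. Male and female mice were used, and the sex of each mouse is not analysed here. The question was whether other ZIP genes rose where *Slc39a14* was lost.

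ZIP proteins move zinc, and in some cases iron or manganese, into the cytosol from outside the cell or from organelles, and ZnT proteins (*Slc30a* genes) move zinc the other way. In the intestine, ZIP4 at the apical membrane takes up zinc from the diet, and ZIP5 and ZIP14 sit at the basolateral side of enterocytes. ZIP14 carries zinc, manganese and iron and is induced by inflammatory cytokines. Most members belong to the LIV subfamily, in which a transmembrane helix with a conserved run of acidic and histidine residues binds the metal. The stretch of coding sequence for that site is shown because it sets *Slc39a14* and its nearest relative *Slc39a8* apart. Both start it with a glutamate codon where the other genes shown have a histidine codon. The first codon is in capitals, the reading is 5′ to 3′ along the mRNA, and the sequences come from GENCODE M21 transcripts of GRCm38.
*Slc39a14*, within chr14:70308830-70309779, minus strand: GAGgaattccctcatgagctgggagac
*Slc39a8*, within chr3:135884383-135884606, plus strand: GAGgagtttcctcatgagttaggggac
*Slc39a4*, within chr15:76612938-76613225, minus strand: CATgagctgccccatgaactcggggac
*Slc39a5*, within chr10:128396652-128396772, minus strand: CACgagctgccccacgaactgggtgac
*Slc39a7*, chr17:34029549-34029575, minus strand: CACgaagtgcctcatgaggttggggat
*Slc39a10*, within chr1:46812172-46818084, minus strand: CATgaactgccacatgaattaggtgat
All lie in coding exons, and in every gene shown but *Slc39a7* an intron splits the stretch. No such stretch was found in the transcripts of *Slc39a1*, *Slc39a3* or *Slc39a11*, which belong to other subfamilies, and the stretch of *Slc39a6* is not analysed here.

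The libraries held between 16729787 and 20819678 counts. All 10 members had enough reads for edgeR's quasi-likelihood test, which was run on 15610 genes after TMM normalization, a scaling of library sizes for composition. Levels are TMM-scaled CPM (counts scaled to the effective size of the library), fold changes are on the log2 scale as KO against WT, and a gene was called when its Benjamini-Hochberg adjusted p over all tested genes was under 0.05. The groups differed in far more than *Slc39a14*. Of the tested genes, 29.9% were called, 16.0% higher and 13.9% lower in KO.

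All libraries are labelled proximal intestine, and the KO libraries went against that label in their markers. The sum of 6 genes of the proximal small intestine (*Gata4*, *Pdx1*, *Onecut2*, *Fabp1*, *Apoa4* and *Lct*) was between 8406 and 15258 CPM in WT and between 25.1 and 1305 CPM in KO. Of these, 4 of 5 tested genes were called lower. The sum of 6 ileum genes was between 201 and 245 CPM in WT and between 3281 and 10548 CPM in KO, and all 6 were called higher. *Gata4*, a transcription factor of the proximal gut, had between 160.3 and 217 CPM in WT, while KO replicate 1 had 59.4 CPM and the other KO libraries between 0.572 and 13.9 CPM. Position along the intestine and genotype cannot be told apart in these libraries, for any member, because all 5 KO libraries differ in this way. Fewer cells of a type and less RNA per cell cannot be told apart either.

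Markers of other cell types were counted beside the same 16.0% of all tested genes called higher and 13.9% called lower. The smooth muscle list had all 10 genes called higher, and its sum was between 1217 and 2166 CPM in WT and between 3275 and 9821 CPM in KO, the last in KO replicate 4. The pan-epithelial list had 6 of 9 genes called higher, from a sum of at most 13547 CPM in WT to at least 13568 CPM in KO. Its genes *Vil1* (log2 fold change -0.49) and *Krt20* (-0.35) went the other way and were not called. The goblet list had 5 of 7 called higher. The enterocyte list had 5 of 8 genes called lower and the enteroendocrine list 3 of 4. Crypt genes had 2 of 5 called higher, fibroblast genes 2 of 6, leukocyte genes 1 of 6 and Paneth genes 0 of 5. Pancreatic acinar genes summed to between 0.766 and 15.5 CPM over all libraries, with *Amy2a5* at 0 in every one. The part of these cell types in the values below was not tested.

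*Slc39a14* (ENSMUSG00000022094), on the minus strand of chromosome 14 between 70303469 and 70351425, was the deleted gene and was clearly lower in KO. Its level was 264, 357, 268, 191 and 223 CPM in WT replicates 1 to 5. In KO replicates 1 to 5 it was 160.1, 85.8, 93.8, 78.5 and 93.7 CPM. Every KO library was below every WT library, and KO replicate 1 stood apart from the other KO libraries, towards the WT range. The means were 260.4 ± 62.5 and 102 ± 32.9 CPM (SD, n = 5 each), and the log2 fold change was -1.35 with a 95% interval from -1.83 to -0.87 (edgeR quasi-likelihood test, adjusted p = 0.00184). The exact permutation test, 2-sided over the 252 possible splits, gave p = 0.00794, the smallest it can give. The KO mean was 39.3% of the WT mean, so the transcript was reduced and not absent. The counts sum all exons of the gene, so they do not show which exons the remaining reads came from or whether protein was made.

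**Figure D1:**
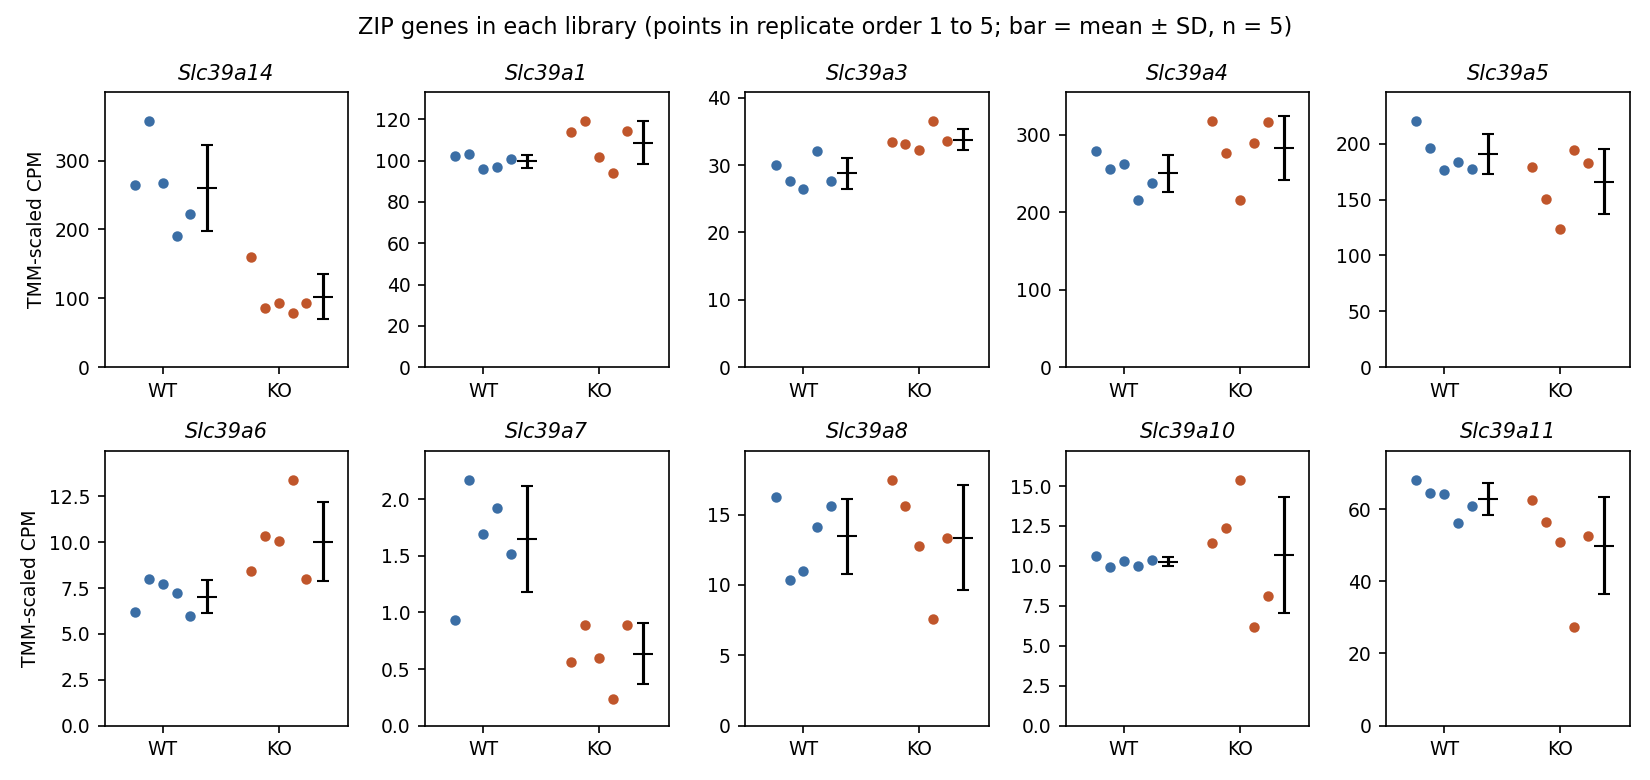
TMM-scaled CPM of the 10 ZIP genes in each library, WT in blue and KO in orange, with points in the order of replicates 1 to 5 and a black bar for the mean ± SD (n = 5 each). The vertical axes start at 0 and differ between genes. For *Slc39a14* and *Slc39a7* the groups do not overlap, with KO lower, and for *Slc39a3* and *Slc39a6* they do not overlap, with KO higher.

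The call of *Slc39a14* was lost with either of these marker scores in the model. With the mean log2 CPM of the smooth muscle markers added to the model, the fitted change was -0.56 (adjusted p = 0.501 by edgeR), and with that of the pan-epithelial markers it was -1.15 (adjusted p = 0.174 by edgeR). Over all 19 alternatives the adjusted p ranged from 1.17e-07 (DESeq2) to 0.501 (edgeR). Neither score overlapped between the groups, and with them 9 and 21 genes of all those tested were called. The 3 genes outside the family whose pattern over the 10 libraries was nearest to that of *Slc39a14* were *Acad11* and *Ehhadh*, both enzymes of fatty acid oxidation, and *P4hb*, the endoplasmic reticulum protein disulfide isomerase. Their log2 CPM, each centred on its own mean, differed from that of *Slc39a14* by a root mean square of 0.122, 0.131 and 0.133 out of 15600 genes compared. *Acad11* had 95.8 ± 15.2 CPM in WT and 36.6 ± 11.4 CPM in KO (SD, n = 5 each), with 56.3 CPM in KO replicate 1 as its highest KO value. These genes were picked by likeness to a gene that differs between the groups, so their own difference is a description only.

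**Figure D2:**
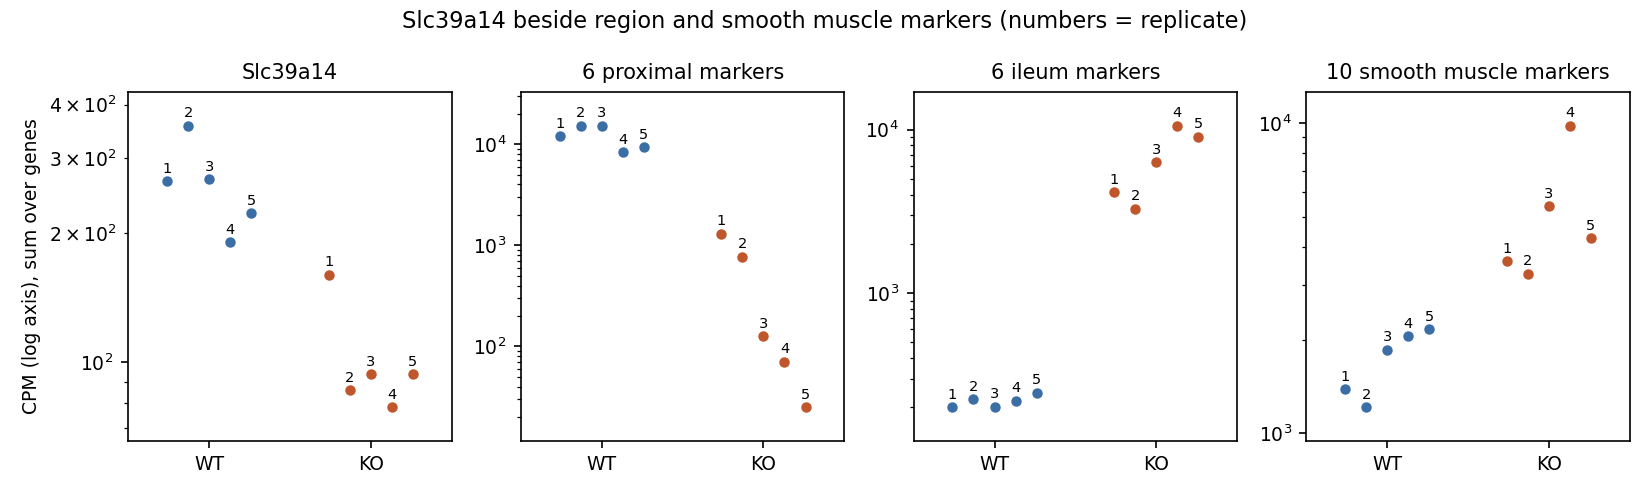
*Slc39a14* and the summed CPM of 6 proximal genes, 6 ileum genes and 10 smooth muscle genes in each library, on log axes, with the replicate number beside each point. All 5 KO libraries lie below the WT libraries for *Slc39a14* and the proximal genes and above them for the ileum and smooth muscle genes.

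Of the 9 other members, 1 was called higher (*Slc39a6*), 1 was called lower (*Slc39a7*) and 7 were not called. A count of 1 in 9 called higher stands beside the 16.0% of all tested genes called higher, and 1 in 9 called lower beside 13.9%. By library size alone, without TMM scaling, 4 were called higher (*Slc39a1*, *Slc39a3*, *Slc39a4* and *Slc39a6*), while 23.1% of all tested genes were called higher under that scaling and the median over all of them was 0.15 on the log2 scale. The median log2 fold change of the 9 was 0.06, beside 0.03 over all tested genes, and 5 of the 9 had a positive value. The groups did not overlap for 3 of the 9 (*Slc39a3*, *Slc39a6* and *Slc39a7*), where 21.1% of all tested genes did not overlap. Among the 7 members not called, the upper ends of the 95% intervals were at most 0.53 on the log2 scale, a 1.44-fold rise, and the lower ends at least -0.73.

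*Slc39a6* encodes ZIP6, an importer at the plasma membrane linked to cell migration and division. It lies on chromosome 18 and was the only member called higher by the main test. WT replicates 1 to 5 had 6.18, 7.97, 7.70, 7.25 and 5.996 CPM, and KO replicates 1 to 5 had 8.45, 10.3, 10.0, 13.4 and 7.97 CPM. The lowest KO library, replicate 5, and the highest WT library, replicate 2, were both at 7.97 CPM to 3 digits, with the KO library marginally higher. The log2 fold change was 0.52 (95% interval 0.15 to 0.88, adjusted p = 0.0369 by edgeR), a 1.43-fold rise. The call was lost in 8 of 10 fits that left out 1 library, those without any WT replicate or without KO replicate 2, 3 or 4. Across these 10 fits the adjusted p by edgeR was between 0.0236 and 0.0876 and the log2 fold change between 0.39 and 0.59. With the smooth muscle score in the model its change was 0.12 (adjusted p = 0.888 by edgeR, where the range over the 19 alternatives was 0.0213 to 0.888). With the epithelial score it was 1.10 (adjusted p = 0.0829 by edgeR).

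*Slc39a10* encodes ZIP10, which pairs with ZIP6 and shares much of its sequence, and it was not called. WT libraries were nearly equal at 10.6, 9.95, 10.3, 10.0 and 10.4 CPM, while KO replicates 1 to 5 had 11.4, 12.4, 15.4, 6.15 and 8.13 CPM. KO libraries lay on both sides of the WT range, 3 above and 2 below. The means differed little, at 10.3 ± 0.283 CPM in WT and 10.7 ± 3.63 CPM in KO (SD, n = 5 each), and the log2 fold change was 0.06 with an interval from -0.41 to 0.53 (adjusted p = 0.855 by edgeR). The interval of *Slc39a10* includes the change of *Slc39a6* (0.52), and a difference between these genes was not tested. KO replicate 4 was the highest KO library for *Slc39a6* and the lowest for *Slc39a10*.

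*Slc39a8* encodes ZIP8, the nearest relative of ZIP14 with the same glutamate codon and the same metals. It had 16.2, 10.3, 11.02, 14.1 and 15.6 CPM in WT replicates 1 to 5 and 17.5, 15.6, 12.8, 7.58 and 13.3 CPM in KO replicates 1 to 5. The WT range lay inside the KO range. The log2 fold change was -0.01 with an interval from -0.49 to 0.46 (adjusted p = 0.968 by edgeR), which in fold terms runs from 0.713 to 1.38.

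*Slc39a4* encodes ZIP4, the main dietary zinc importer of the brush border. Its WT replicates 1 to 5 had 279, 255.5, 262, 216 and 238 CPM and its KO replicates 317, 277, 215, 290.0 and 316 CPM. KO replicates 1, 4 and 5 were above every WT library, and KO replicate 3 was just below all of them. The log2 fold change was 0.18 (interval -0.09 to 0.45, adjusted p = 0.286 by edgeR), and without WT replicate 4 it was 0.11.

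*Slc39a5* encodes ZIP5, which removes zinc from the circulation at the basolateral side of enterocytes and in the pancreas. It had 219.8, 196, 176, 184 and 177 CPM in WT replicates 1 to 5, and 179, 150.2, 123, 195 and 183 CPM in KO. KO replicates 2 and 3 were below every WT library and the others lay within the WT range. Its log2 fold change was -0.20 (interval -0.48 to 0.08, adjusted p = 0.256 by edgeR), and without KO replicate 3 it was -0.12.

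In WT libraries *Slc39a14* and *Slc39a4* had about the same CPM, with a ratio of *Slc39a14* to *Slc39a4* of 1.04 ± 0.208 (SD, n = 5). In KO libraries the ratio was 0.364 ± 0.101 (SD, n = 5), from 0.271 in replicate 4 to 0.505 in replicate 1, and no KO library reached the lowest WT ratio of 0.882.

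*Slc39a1* and *Slc39a3* encode ZIP1 and ZIP3, broadly expressed importers at the cell surface. *Slc39a1* varied little between WT libraries, which had between 96.1 and 103 CPM, and KO libraries had between 93.7 and 119 CPM. The log2 fold change of *Slc39a1* was 0.12 (interval -0.06 to 0.30, adjusted p = 0.279 by edgeR), and without KO replicate 2 it was 0.08. *Slc39a3* had 30.0, 27.6, 26.4, 32.0 and 27.7 CPM in WT replicates 1 to 5 and 33.5, 33.2, 32.3, 36.5 and 33.5 CPM in KO. Every KO library was above every WT library, by a small margin (32.3 against 32.0 CPM at the nearest). The log2 fold change of 0.23 had an interval from 0.05 to 0.41 and an adjusted p of 0.0516 by edgeR, just short of the threshold, and the exact permutation test gave the same p of 0.00794 as for *Slc39a14*. By library size alone, without TMM scaling, *Slc39a3* was called at 0.36 (adjusted p = 0.0146 by edgeR, from a range over the alternatives of 0.0146 to 0.762), under which the median of all genes was higher as given above.

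*Slc39a11* encodes ZIP11, an importer of a separate subfamily found in internal membranes. It had 68.0, 64.5, 64.1, 56.2 and 60.9 CPM in WT replicates 1 to 5 and 62.5, 56.3, 50.8, 27.4 and 52.4 CPM in KO. KO replicate 4 was far below the rest, and KO replicates 3, 4 and 5 were below every WT library. The log2 fold change was -0.33 (interval -0.73 to 0.06, adjusted p = 0.181 by edgeR), and the exact permutation test gave an unadjusted p of 0.0397. Without KO replicate 4 the log2 fold change shrank to -0.18 (adjusted p = 0.161 by edgeR), and no fit that left out 1 library brought a call.

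*Slc39a7* encodes ZIP7, which releases zinc from the endoplasmic reticulum. It was called lower, on very few reads. WT replicates 1 to 5 had 18, 34, 29, 35 and 27 counts, and KO replicates 1 to 5 had 10, 17, 11, 5 and 17 counts. In CPM, the WT libraries (0.934 to 2.17) were all above the KO libraries (0.238 to 0.892). The log2 fold change was -1.36 (interval -2.14 to -0.59, adjusted p = 0.0152 by edgeR), and the call held with each library left out (adjusted p by edgeR between 0.0153 and 0.0423). It was lost with either the smooth muscle score (-0.41, adjusted p = 0.816 by edgeR) or the epithelial score (-1.67, adjusted p = 0.200 by edgeR) in the model. In GENCODE M21, 80.7% of the 2584 exon bases of *Slc39a7* are also exon of *Gm20427*, a gene on the same strand that had 1 count over all libraries together. How the authors' counting treated reads shared by 2 genes is not given in the sources used here, so both the level and the change of *Slc39a7* are uncertain. No other member shared exon bases with another annotated gene.

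**Figure D3:**
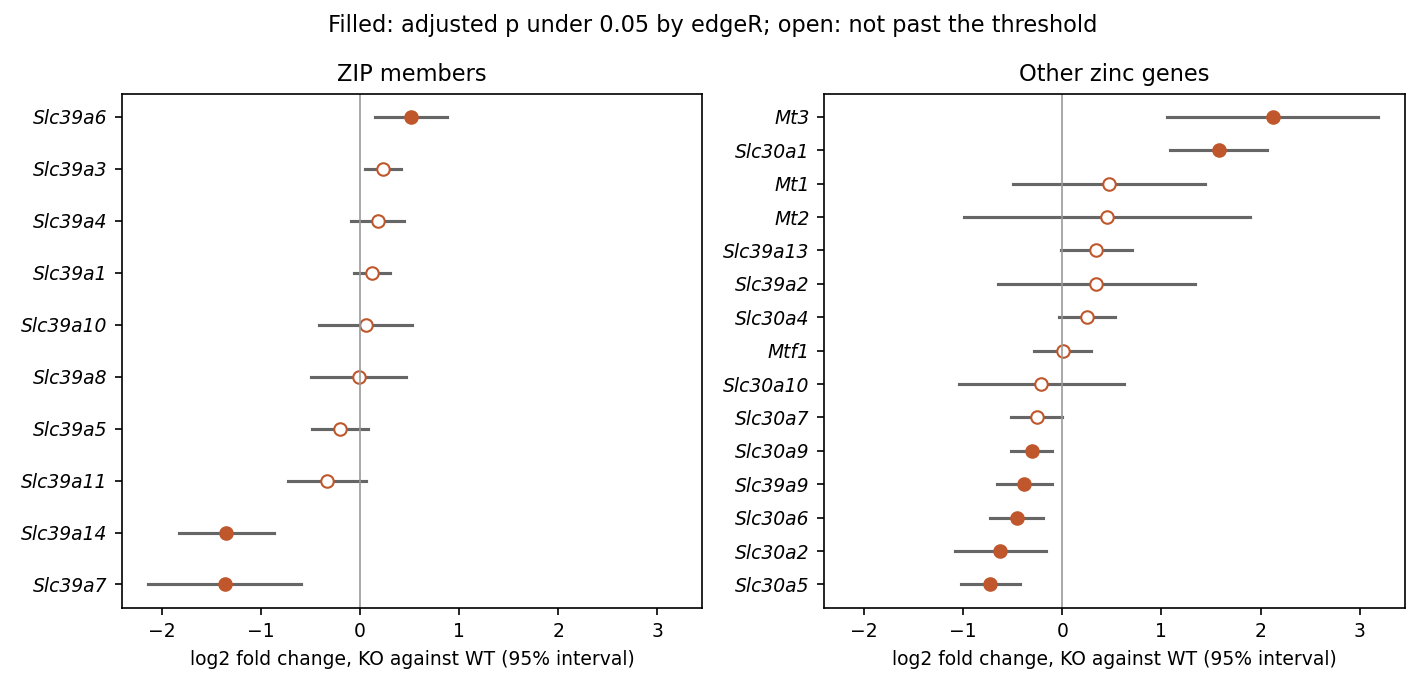
Log2 fold change of KO against WT with its 95% interval for the 10 ZIP members (left) and for the other tested ZIP, ZnT, metallothionein and *Mtf1* genes (right). Filled points passed an adjusted p of 0.05 by edgeR. Among the members, only *Slc39a6* is filled to the right of 0, and *Slc39a14* and *Slc39a7* are filled to the left.

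The spread between mice was wider in KO than in WT for 9 of the 10 members, by the SD as a share of the mean, and for 76.9% of all tested genes. The exception was *Slc39a3*, at 7.86% in WT and 4.68% in KO. For *Slc39a10* the share was 2.76% in WT and 33.9% in KO. KO replicate 4 was the lowest KO library for 6 of the 10 members and the highest for 3. KO replicate 1 was the highest for 4 and the lowest for 0.

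Compared per length, as CPM per kb of exon, the members spanned a wide range. In WT mice *Slc39a5* (85.7 ± 8.14) and *Slc39a4* (80.5 ± 7.69) were highest, and their ranges over libraries overlapped. *Slc39a1* followed at 42.2 ± 1.34, then *Slc39a14* at 24.7 ± 5.93 and *Slc39a11* at 18.7 ± 1.32 (SD, n = 5 each), with the last 2 overlapping. *Slc39a3* was next at 7.16 ± 0.563 and apart from its neighbours. *Slc39a8*, *Slc39a6* and *Slc39a10* lay together between 1.68 and 1.76 on average by this length, and *Slc39a7* was lowest at 0.637 ± 0.181 (SD, n = 5). In KO mice *Slc39a4* came first at 91.1 ± 13.4 and *Slc39a5* next at 74.6 ± 13 (SD, n = 5 each), again overlapping. *Slc39a14* was at 9.70 ± 3.12 in KO, behind *Slc39a11* at 14.9 ± 3.97 (SD, n = 5 each), with overlapping ranges. The order depends on the length taken. The exons of all *Slc39a14* transcripts cover 10550 bases, and its longest transcript has 5117. With the longest transcript *Slc39a14* had 50.9 ± 12.2 CPM per kb in WT and 20.0 ± 6.43 CPM per kb in KO (SD, n = 5 each), above *Slc39a1* on average in WT, with overlapping ranges, and below it in KO. Its mean in KO was then above that of *Slc39a11* (17.9 ± 4.80, SD, n = 5), the reverse of the order by exon bases, and the ranges overlapped again. *Slc39a8* had 3.20 ± 0.635 in WT with its longest transcript and lay apart from *Slc39a10* (1.87 ± 0.0515) and *Slc39a6* (1.81 ± 0.230, SD, n = 5 each).

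Summed over the 9 other members, CPM per kb of exon was 240.1 ± 16.3 in WT and 241 ± 26.5 in KO (SD, n = 5 each). The libraries ranged from 224 to 265 in WT and from 198 to 264 in KO, so the means differed by less than the spread between mice. The sum is weighted to the members with the highest levels. Of these, the mean of *Slc39a4* was higher in KO (80.5 in WT, 91.1 in KO) and that of *Slc39a5* lower (85.7 and 74.6), and neither was called. A steady sum therefore does not show that each member was steady. *Slc39a14* made up between 7.47% and 12.1% of the sum over all 10 members in WT and between 2.97% and 5.43% in KO. With the longest transcript as the length, these shares were between 13.1% and 20.5% and between 5.43% and 9.68%.

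**Figure D4:**
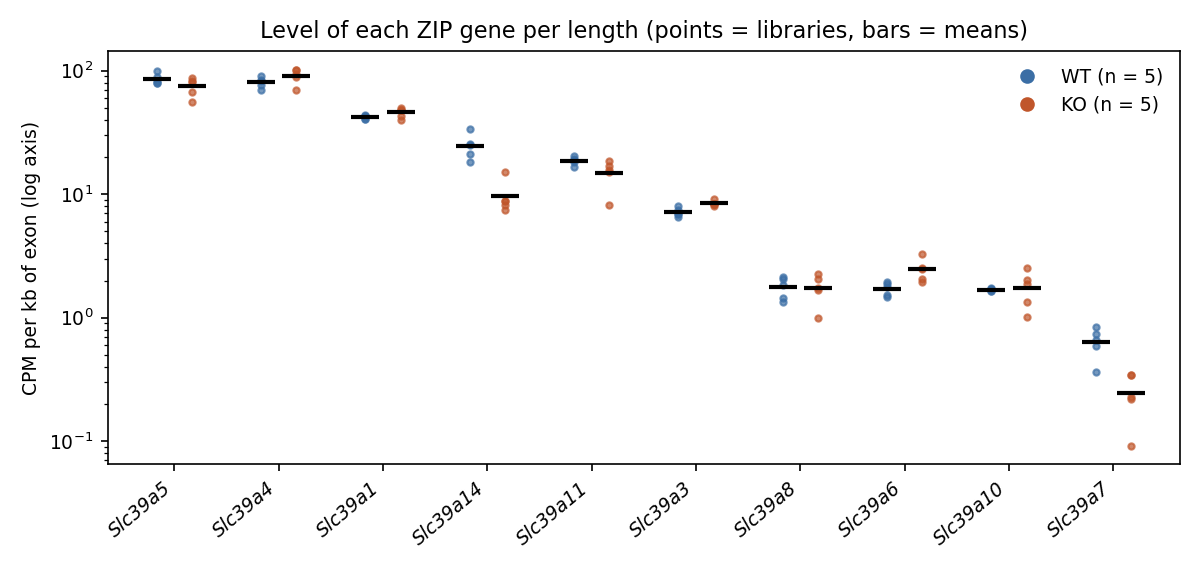
CPM per kb of exon of each member on a log axis, ordered by the WT mean, with points for libraries and bars for group means. *Slc39a5* and *Slc39a4* lead in both groups, and *Slc39a14* lies below *Slc39a11* on average in KO, an order that turns with the longest transcript as the length.

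Of the 4 mouse ZIP genes outside the members, 3 were tested, with 0 called higher and 1 called lower, beside 16.0% and 13.9% of all tested genes. *Slc39a9*, which encodes the Golgi protein ZIP9, was called lower, from 171 ± 30.0 CPM in WT to 131 ± 10.7 CPM in KO (SD, n = 5 each, log2 fold change -0.38, adjusted p = 0.0400 by edgeR), with overlapping groups. Of the exon bases of *Slc39a9*, 4.52% are shared with *Erh* on the opposite strand, of *Slc39a13* 4.42% with *Psmc3* on the opposite strand (at most 150.3 CPM), and of *Slc39a2* 4.38% with *Mettl17* on the same strand (at most 23.8 CPM). *Slc39a13* had 7.99 ± 0.725 CPM in WT and 10.1 ± 2.44 CPM in KO (SD, n = 5 each), with 4 of 5 KO libraries above every WT library. It was not called (0.34, adjusted p = 0.129 by edgeR), and the exact permutation test gave an unadjusted p of 0.0317. *Slc39a2* was not called either (0.34, adjusted p = 0.587 by edgeR). *Slc39a12* was below the filter on low counts.

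Among the zinc exporters, *Slc30a1* changed more than any other ZnT gene tested. It encodes ZnT1, which exports zinc across the plasma membrane and is a known target of the zinc sensor MTF1. It had 39.9, 39.9, 32.0, 29.7 and 32.6 CPM in WT replicates 1 to 5 and 62.0, 91.3, 81.2, 141 and 143 CPM in KO. All KO libraries were above all WT libraries, with a log2 fold change of 1.58 (interval 1.08 to 2.07, adjusted p = 9.32e-04 by edgeR). Of the 8 ZnT genes tested out of 10, 1 was called higher and 4 lower, beside 16.0% and 13.9% of all tested genes, with a median log2 fold change of -0.28 beside 0.03. The lower ones were *Slc30a5* (-0.73) and *Slc30a6* (-0.46), whose products pair to load zinc into the secretory pathway, *Slc30a2* (-0.62) and *Slc30a9* (-0.31), with adjusted p between 0.00353 and 0.0424 by edgeR. The groups overlapped for *Slc30a2* and *Slc30a9*. *Slc30a4*, an exporter into vesicles, had 94.3 ± 13.4 CPM in WT and 112 ± 17.2 CPM in KO (SD, n = 5 each) and was not called (0.25, adjusted p = 0.167 by edgeR).

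The metallothioneins *Mt1* and *Mt2*, zinc-binding proteins that are also MTF1 targets, varied widely and were not called. *Mt1* had 117 ± 45.5 CPM in WT and 162 ± 101 CPM in KO (SD, n = 5 each, log2 fold change 0.47, interval -0.49 to 1.44, adjusted p = 0.435 by edgeR). *Mt2* had 37.7 ± 26.9 CPM in WT and 51.5 ± 36.3 CPM in KO (SD, n = 5 each). *Mtf1* itself was at 47.7 ± 3.34 CPM in WT and 47.8 ± 9.28 CPM in KO (SD, n = 5 each). Of the 4 tested genes of the zinc buffering list, only *Mt3* was called (higher, as were 16.0% of all tested genes). It had 0.703 ± 0.303 CPM in WT and 3.09 ± 1.85 CPM in KO (SD, n = 5 each), with overlapping groups.

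MTF1 binds metal response elements, and their core letters TGCACNC or TGCGCNC were searched on both strands of RefSeq promoters (GRCm38.p6, 250 bases before to 50 after a start site). Promoters were held for 7 of the 10 members, and not for *Slc39a14*, *Slc39a4* and *Slc39a6*. The core was in 5 of the 11 promoters of these members, each with 1 copy, and in 25.7% of all 32851 promoters. The 5 were the promoter of *Slc39a3* (log2 fold change 0.23), 1 of 2 of *Slc39a5* (-0.20), 1 of 2 of *Slc39a8* (-0.01) and both of *Slc39a11* (-0.33), so members with the core lay on both sides of 0, and none of these was called. *Slc39a3*, whose groups did not overlap, and *Slc30a1*, the exporter that rose, are shown with the core in capitals, the latter with its copies on the opposite strand.
*Slc39a3*, chr10:81037443-81037469, minus strand: atttggtagcTGCACTCatgtttagaa
*Slc30a1*, chr1:191906728-191906754, plus strand: cgggggttccGAGTGCAaagcaaagtt
*Slc30a1*, chr1:191906801-191906827, plus strand: cctccgggccGAGCGCAgtcgccgcgg
A match of these letters is a description and no evidence of binding.

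ZIP14 also carries iron and manganese. Of 10 tested genes of iron and manganese transport, 2 were called lower and 0 higher, beside 13.9% and 16.0% of all tested genes, with a median log2 fold change of -0.43 beside 0.03. They were *Fth1*, the ferritin heavy chain that stores iron (1985 ± 703 CPM in WT and 1084 ± 153 CPM in KO, SD, n = 5 each, log2 fold change -0.87, adjusted p = 0.0185 by edgeR), and *Tmem165*, a Golgi manganese transporter (-0.45, adjusted p = 0.00545 by edgeR). The groups overlapped for *Fth1*. The ferritin light chain gene *Ftl1* (1266 ± 173 CPM in WT and 1185 ± 211 CPM in KO, SD, n = 5 each), the ferroxidase gene *Heph* (-0.46, adjusted p = 0.0695 by edgeR) and the transferrin receptor gene *Tfrc* (-0.46, adjusted p = 0.0983 by edgeR) were not called.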

How the data were processed

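For each of the 10 libraries the authors deposited raw counts by Ensembl gene, as whole numbers with no normalization. Total RNA of frozen tissue had been made into libraries with a SMARTer kit. The submitters' processing notes name FastQC 0.11.9, Trimmomatic, HISAT2 2.0.4, SAMtools 1.3.1, DESeq2 1.14.1 and the builds GRCm38 and mm10. The sources used here do not give the read counter, its annotation or its strand setting. GENCODE M21 (GRCm38) was used for gene names, found for 34490 of 35275 IDs, and for positions. Groups were taken from the sample titles.

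R 4.3.3 was used with edgeR 4.0.16 (filterByExpr with a minimum count of 10 and a minimum total of 15, TMM, quasi-likelihood test, Benjamini-Hochberg over 15610 genes) and DESeq2 1.42.0 as an alternative. Intervals are those of the edgeR fit. The exact permutation test used the mean log2 CPM with a prior count of 2. For counting error only, a count of 0 allows up to 3 counts, which is between 0.143 and 0.191 CPM.

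Named were all members, the other *Slc39a* genes, the at most 4 most abundant genes of each metal list, and the 3 genes nearest to *Slc39a14* in pattern. Among the ZnT genes, *Slc30a1* reached this abundance only through its KO mean of 104 CPM. Its WT mean of 34.8 CPM was below those of *Slc30a5* (128), *Slc30a2* (99.7), *Slc30a4* (94.3) and *Slc30a9* (70.4). *Gata4*, *Amy2a5*, *Vil1*, *Krt20*, *Gm20427*, *Erh*, *Psmc3*, *Mettl17*, *Tmem165*, *Slc30a6*, *Slc30a9*, *Socs3*, *Nos2* and *Il6* were named after their values were seen. The members and lists were chosen with earlier results of these data known. Alternatives were other scalings and filters, DESeq2, leaving out mice, a replicate block, and smooth muscle or epithelial scores as covariates.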

Additional observations from a re-analysis of the deposited data

Results flagged for a closer look

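*Slc39a14* in KO replicate 1, at 160.1 CPM, lay far from the other KO libraries, which had between 78.5 and 93.8 CPM. KO replicate 1 also had the highest KO sum of proximal genes (1305 CPM). Its enterocyte sum was 31717 CPM, inside the WT range of 29341 to 37050 CPM, and those of the other KO libraries were at most 18614 CPM. Its ileum sum (4121 CPM) lay among those of the other KO libraries. A link of these sums with *Slc39a14* was not tested. For *Slc39a14*, the gap of KO replicate 1 to the next library was 0.813 of the range of the group. This is above the limit of 0.71 of Dixon's test for 5 samples. It was the only library so marked among 20 groups of 5 tested (10 genes in 2 genotypes), where chance alone marks about 1 in 20. Without this library the log2 fold change of *Slc39a14* was -1.57.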

How the results depend on the processing

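The direction and call of *Slc39a14* held in 17 of 19 alternatives, among them RLE or library-size scaling, DESeq2, other filters on low counts and the replicate block, and its log2 fold change was between -1.57 and -1.21 with single mice left out. The call was lost with the smooth muscle score (-0.56) and the epithelial score (-1.15) as covariates, which do not overlap between the groups. With these scores 0 members were called higher and 0 lower, and 9 and 21 of all tested genes were called in place of 4660. The number of members called higher was 1 in the main test, where 16.0% of all tested genes were called higher. It was 4 by library size only (*Slc39a1*, *Slc39a3*, *Slc39a4* and *Slc39a6*), where that share was 23.1%. Without a filter it was 0, where the share was 8.63%. With KO replicates 1 and 4 left out together (chosen after seeing the data) it was 0, beside a share of 15%. With single mice left out it was 0 to 1, beside shares of 10.3% to 18.5%. The number called lower was 2 in all fits without a score, in which between 1573 and 2633 of all tested genes were called lower. With single mice left out, between 3207 and 5507 genes were called. Of called genes, 53.5% were higher after TMM and 69.4% by library size only. The sign turned for members that were not called, *Slc39a8* (0.10 by library size, 0.63 with the smooth muscle score, 0.04 without KO replicates 1 and 4, and -0.13 to 0.14 without single mice), *Slc39a11* (0.51 with the smooth muscle score) and *Slc39a10* (-0.01 with the block, -0.12 to 0.21 without single mice). The sample titles share replicate numbers, but same-numbered libraries did not deviate together (correlations between -0.167 and 0.177), and only 1 of 5 WT libraries correlated best with its own number. With the replicate block 3848 genes were called, with 1 member higher and 2 lower as before. The result of *Slc39a7* rests on few reads, with 5 to 35 counts a library.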

Other observations

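Of 9 tested genes known to induce *Slc39a14* in inflammation, or to carry or restrain such signals, 1 was called higher and 2 lower. These counts mix inducers with an inhibitor and stand beside 16.0% and 13.9% of all tested genes. The median log2 fold change of the 9 genes was -0.26, beside 0.03 over all tested genes. *Socs3*, a feedback inhibitor of cytokine signalling, had 81.0 ± 25.7 CPM in WT and 40.2 ± 10.1 CPM in KO (SD, n = 5 each, log2 fold change -1.01, adjusted p = 0.00992 by edgeR), with overlapping groups. *Jak2*, a kinase of the same pathway, had a log2 fold change of -0.56 (adjusted p = 0.0225 by edgeR). The abundant genes *Stat3* (-0.13), *Jak1* (-0.26) and *Il6st* (0.10) were not called. *Nos2*, the inducible nitric oxide synthase, had 5.79 ± 5.93 CPM in WT and 137 ± 135 CPM in KO (SD, n = 5 each, log2 fold change 4.55, adjusted p = 0.00375 by edgeR), from 19.8 CPM in KO replicate 3 to 363 CPM in KO replicate 5. *Il6*, the cytokine best known to induce *Slc39a14*, was below the filter on low counts.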
